A study of Mus musculus with 6 samples.

Results

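Wnt signalling genes were examined in the lungs of Fra-2tg mice, which carry a transgene for Fra-2 (the AP-1 transcription factor encoded by Fosl2), and of wild-type littermates. The set holds the Wnt ligands, their Frizzled (Fzd) and Lrp5/6 receptors, the R-spondins (Rspo) with Lgr4 to Lgr6, the secreted inhibitors (Sfrp, Dkk, Frzb, Wif1 and Notum), and Porcn, Axin2, Lef1 and Tcf7. Members were matched by gene symbol alone, and 53 of the 23284 genes in the deposited table matched. No measured value entered the match, but the set was chosen with earlier results of these data known. Each group had 3 mice aged 6 weeks on the C57BL/6 background, 1 library of poly(A) RNA from whole lung for each mouse, and neither group received a treatment. The labels used here do not name the promoter that drives the transgene or the founder line, so which lung cells carry it is not known from them.

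Wnt proteins are secreted lipid-modified signals. In the canonical branch they bind a Frizzled receptor together with Lrp5 or Lrp6, which spares beta-catenin from destruction and lets it act with TCF/LEF factors on target genes such as Axin2. Ligands such as Wnt5a act mainly through branches that do not use beta-catenin. R-spondins and Lgr receptors raise the number of Frizzled receptors on the cell surface. Many Sfrp and Dkk proteins, Wif1 and Notum restrain the signal outside the cell. In lung the pathway is known for specifying the organ in the embryo and for maintaining alveolar stem cells in the adult.

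The table gives FPKM, which divides the fragments of a gene by its transcript length and by library size, a unit that allows levels to be compared between genes. The test was limma on log2(FPKM + 1), run on the 14855 genes that averaged 0.5 FPKM or more over the 6 libraries, and "called" means an adjusted p below 0.05 over all of them. The 6 libraries separated by genotype on the first principal component, which held 51.5% of the variance, where wild type replicate 2 lay closest to the transgenic mice. Fosl2 was 11.1, 13.9 and 11.2 FPKM in wild-type mice, against 12.3, 17.4 and 15.8 FPKM in Fra-2tg. Those groups overlapped, and Fosl2 was not called (log2 fold change 0.30 ± 0.14 SE, limma adjusted p = 0.158). The related AP-1 gene Fosl1, named after its values were seen, measured 0.0271, 8.23 and 0.0631 FPKM in wild-type mice, against 39.9, 44.4 and 46.002 FPKM in Fra-2tg (limma adjusted p = 0.0103). Wild type replicate 2 thus stood far above the other wild-type mice for Fosl1, and without it the log2 difference went from 4.36 to 5.41. Lung identity was present in every library, with the type 1 cell receptor Ager at 1319 to 1664 FPKM and the surfactant gene Sftpb at 2056 to 3642 FPKM. The surfactant gene Sftpc was listed at 0 in every Fra-2tg library and the club cell gene Scgb1a1 at 0 in 1 library of each group, while both reached 25397 FPKM or more elsewhere, so sums of FPKM over a library depend on them. Scaled to equal sums without those 2 genes, an alternative chosen after the data were seen, the median gene moved by -0.13 on the log2 scale and 1148 genes were called higher and 3438 lower, against 2027 and 1936 as deposited.

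Wnt members changed in both directions, with more falls than rises. Of the 53 members, 36 passed the filter on low values, and 7 of these were called higher and 14 lower in Fra-2tg (limma). That is 19.4% higher and 38.9% lower, where 13.6% of all tested genes were called higher and 13.0% lower. The median log2 fold change of the tested members was -0.19, beside 0.0026 for all genes tested. The values of the Fra-2tg mice lay wholly above those of wild type for 7 tested members and wholly below for 18, shares of all tested genes being 23.3% and 22.4%. The highest folds among called members were those of the secreted inhibitors Sfrp2 and Dkk2 and the R-spondin Rspo4. Dkk2 and Rspo4 averaged 0.365 and 0.46 FPKM in wild type, under the filter of 0.5 FPKM, and passed it through their Fra-2tg values. Rspo3, at 0.742 FPKM in wild type, failed it through its low Fra-2tg values. The lowest folds among called members were those of the ligand Wnt10b, the transcription factor Lef1 and the R-spondin receptor Lgr6. The calls of 11 members held with each library left out in turn and those of the other 10 did not, as given gene by gene. In whole lung RNA, fewer cells of a type and less RNA per cell cannot be told apart.

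**Figure D1:**
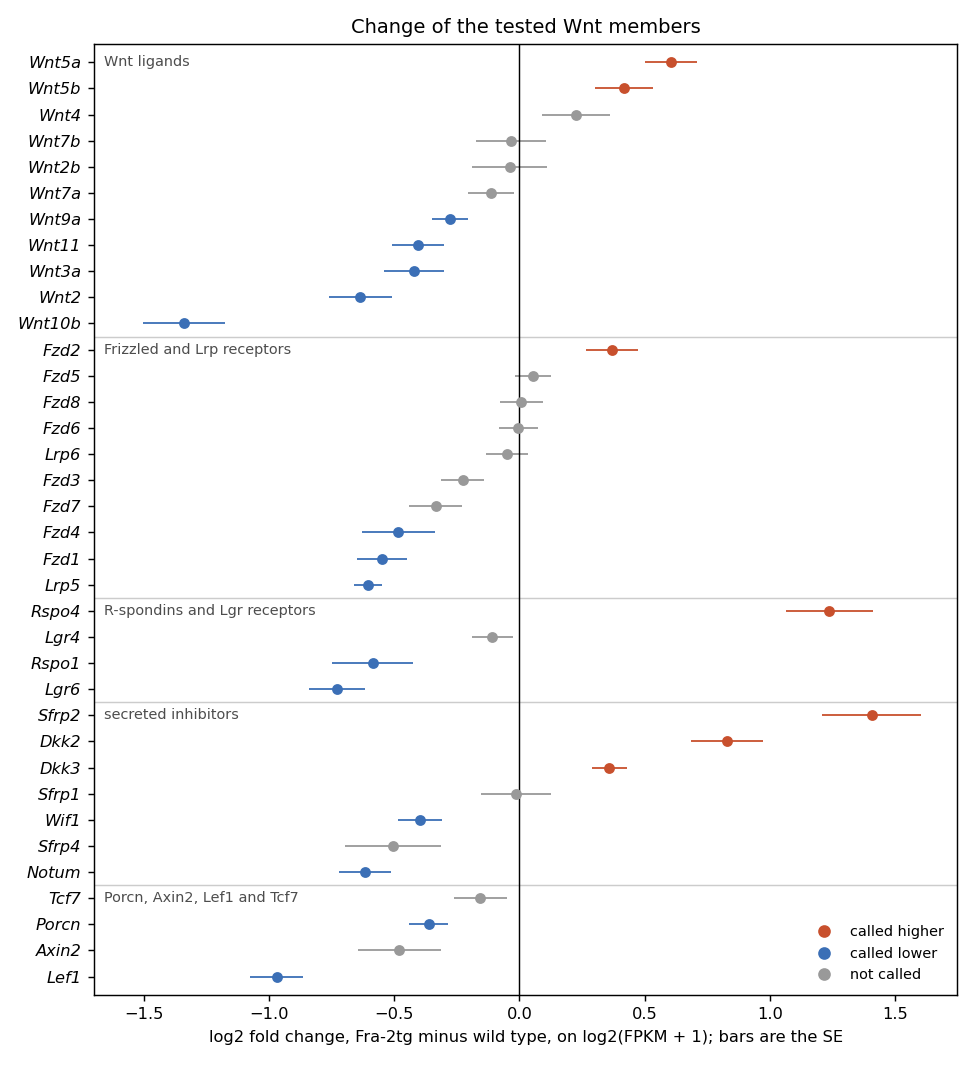
Log2 fold change of the 36 tested Wnt members, Fra-2tg minus wild type on log2(FPKM + 1), grouped by role, with bars for the SE (3 mice a group). The ligands run from Wnt5a at 0.61 to Wnt10b at -1.34, and the secreted inhibitors from Sfrp2 at 1.41 to Notum at -0.62.

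Among the 19 Wnt ligands, 11 were tested, 2 were called higher and 5 lower. Wnt10b, a canonical ligand known for blocking fat cell formation, fell the most (chromosome 15, 98770712 to 98778150 on GRCm38). It was 8.76, 9.68 and 10.7 FPKM in wild-type mice, against 4.23, 2.37 and 3.26 FPKM in Fra-2tg. Every Fra-2tg value was below every wild-type value. The group means were 9.72 ± 0.99 and 3.29 ± 0.93 FPKM (± SD of 3 mice), 0.338 times wild type (log2 fold change -1.34 ± 0.16 SE, limma adjusted p = 0.0027).

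Wnt2, a canonical ligand made by lung mesenchyme, fell as well (chromosome 6, 17988940 to 18030585). It was 8.08, 11.2 and 10.2 FPKM in wild-type mice, against 6.48, 5.32 and 6.03 FPKM in Fra-2tg. The groups did not overlap, and the Fra-2tg mean was 0.604 times wild type (log2 fold change -0.64 ± 0.13 SE, limma adjusted p = 0.0126). Leaving out wild type replicate 3 ended this call (limma adjusted p = 0.0503). Of 9 alveolar fibroblast markers, 7 fell and 0 rose, with none at 0. Their summed FPKM was 2378 to 2801 in wild-type mice, against 1859 to 2058 in Fra-2tg. Most of that sum was Inmt, at 1865, 2010 and 2205 FPKM in wild-type mice, against 1693, 1564 and 1479 FPKM in Fra-2tg. Inmt and Figf were the markers not called (limma adjusted p = 0.0605 and 0.438). Wnt2 thus fell beside markers of a cell type that makes it, and the part of that cell type in the result was not tested.

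Wnt3a, the canonical ligand used most often to activate the pathway in culture, was 8.13, 9.32 and 8.82 FPKM in wild-type mice, against 7.59, 5.31 and 6.14 FPKM in Fra-2tg. Its groups did not overlap, although Fra-2tg replicate 1 came close to the lowest wild-type value (0.724 times wild type, limma adjusted p = 0.0436). The call ended without any 1 of the libraries other than Fra-2tg replicate 1 (limma adjusted p = 0.064 to 0.119). Wnt9a, which lies 16175 bases from Wnt3a on chromosome 11 and is transcribed away from it, was 3.90, 4.13 and 4.05 FPKM in wild-type mice, against 3.27, 2.94 and 3.25 FPKM in Fra-2tg. This was 0.782 times wild type (limma adjusted p = 0.0306), with no overlap, and leaving out any 1 library ended the call (0.0561 to 0.0908). Wnt11, a ligand of the branches without beta-catenin, was 4.82, 4.68 and 4.25 FPKM in wild-type mice, against 2.96, 3.80 and 2.93 FPKM in Fra-2tg. It stood at 0.705 times wild type with no overlap (limma adjusted p = 0.0288), and its call ended without any 1 library other than Fra-2tg replicate 2 (0.0577 to 0.0939).

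Wnt5a and Wnt5b, close relatives that act mainly without beta-catenin, were the ligands that rose. Wnt5a (chromosome 14, 28504750 to 28527448) measured 4.87, 6.14 and 5.49 FPKM in wild-type mice, against 9.69, 7.89 and 9.08 FPKM in Fra-2tg. The groups lay well apart, at means of 5.50 ± 0.64 and 8.89 ± 0.91 FPKM (± SD of 3 mice), 1.62-fold higher (log2 fold change 0.61 ± 0.10 SE, limma adjusted p = 0.00766). Wnt5b (chromosome 6, 119432531 to 119544347) measured 2.41, 2.64 and 1.91 FPKM in wild-type mice, against 3.61, 3.71 and 2.98 FPKM in Fra-2tg. It rose 1.48-fold without overlap (limma adjusted p = 0.0388), and its call ended when wild type replicate 1 or 3, or Fra-2tg replicate 1 or 2, was left out (0.0721 to 0.117) and under the scaling without Sftpc and Scgb1a1 (0.063). Of the receptors that take Wnt5a apart from Frizzled, all named after their values were seen, Ror2 stood at 1.46 times wild type (limma adjusted p = 0.0478), Ror1 at 0.860 (0.354) and Ryk at 0.945 (0.321). The Ror2 call ended with any 1 library left out (0.0511 to 0.145).

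The promoters of Wnt5b and Wnt11 are shown because they are the called members whose start-site windows held the letters of an AP-1 or TCF/LEF motif. Windows of 300 bases, from 250 before to 50 after each annotated start, were available from RefSeq (GRCm38.p6) for 34 members, 15 of them called, in 41 windows in all. The AP-1 letters TGANTCA, which read alike on both strands, were found in 1 of the 41 windows, where 7.81% of all 32851 windows held them. The TCF/LEF letters CTTTGNT, searched on both strands, were found in 7 of the 41, where 18.6% of all windows held them. No match overlapped another. The AP-1 match lies in the Wnt5b window at chr6:119544298-119544597, minus strand, with its first base at -191 from the start site. A second Wnt5b window at chr6:119449337-119449636, minus strand, holds 2 TCF/LEF matches at -90 and -71. The Wnt11 window at chr7:98834862-98835161, plus strand, holds 1 TCF/LEF match at -51. Capitals mark the matches. The other windows of Wnt5b and Wnt11 and those of Sfrp2, Dkk2, Rspo4, Wnt10b, Wnt2, Lgr6 and Lef1 held neither set of letters.
Wnt5b, upstream start: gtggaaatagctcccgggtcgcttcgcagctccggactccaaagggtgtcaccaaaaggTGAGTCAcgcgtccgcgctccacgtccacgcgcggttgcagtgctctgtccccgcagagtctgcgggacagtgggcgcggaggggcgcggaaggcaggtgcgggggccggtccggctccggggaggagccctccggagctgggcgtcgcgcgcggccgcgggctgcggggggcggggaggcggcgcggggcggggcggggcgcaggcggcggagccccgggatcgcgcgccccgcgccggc
Wnt5b, downstream start: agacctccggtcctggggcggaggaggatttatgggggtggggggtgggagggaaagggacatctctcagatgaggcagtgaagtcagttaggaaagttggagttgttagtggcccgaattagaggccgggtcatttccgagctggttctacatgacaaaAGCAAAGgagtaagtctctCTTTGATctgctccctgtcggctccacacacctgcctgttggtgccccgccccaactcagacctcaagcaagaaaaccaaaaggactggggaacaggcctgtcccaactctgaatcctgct
Wnt11: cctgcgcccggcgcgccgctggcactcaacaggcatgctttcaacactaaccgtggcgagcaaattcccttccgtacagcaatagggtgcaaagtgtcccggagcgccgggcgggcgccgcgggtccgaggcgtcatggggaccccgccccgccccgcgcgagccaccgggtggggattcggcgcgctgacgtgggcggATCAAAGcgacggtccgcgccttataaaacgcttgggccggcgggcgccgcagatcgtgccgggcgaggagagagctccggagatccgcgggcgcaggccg

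The other tested ligands did not pass the test. Wnt7b, an epithelial ligand of lung, had means of 2.41 ± 0.60 FPKM in wild-type mice, against 2.30 ± 0.29 FPKM in Fra-2tg, Wnt7a 5.40 ± 0.33 and 4.93 ± 0.55 FPKM, and Wnt2b, a relative of Wnt2, 1.55 ± 0.50 and 1.46 ± 0.19 FPKM (± SD of 3 mice). The groups overlapped for all of these (limma adjusted p = 0.393 to 0.883). Wnt4 was 5.31 to 5.92 FPKM in wild-type mice, against spread from 5.43 to 8.34 FPKM in Fra-2tg (limma adjusted p = 0.26).

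The make-up of the ligand pool therefore differed between genotypes. In wild type the leading ligands were Wnt2, Wnt10b and Wnt3a, at means of 9.84, 9.72 and 8.76 FPKM, which did not differ beyond their spread. In Fra-2tg the order was led by Wnt5a at 8.89 FPKM, followed by Wnt4, Wnt3a and Wnt2 at 6.88, 6.34 and 5.94 FPKM, the last 3 again within their spread. As a share of the summed FPKM of all 19 ligands, Wnt10b went from 16.2% ± 1.27 to 6.46% ± 1.34 and Wnt5a from 9.12% ± 0.63 to 17.6% ± 0.97 (± SD of 3 mice). The summed FPKM of the ligands was 56.9, 62.7 and 60.9 in wild-type mice, against 55.2, 47.2 and 48.6 in Fra-2tg. Those sums did not overlap, and Fra-2tg replicate 1 was the nearest to wild type.

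**Figure D2:**
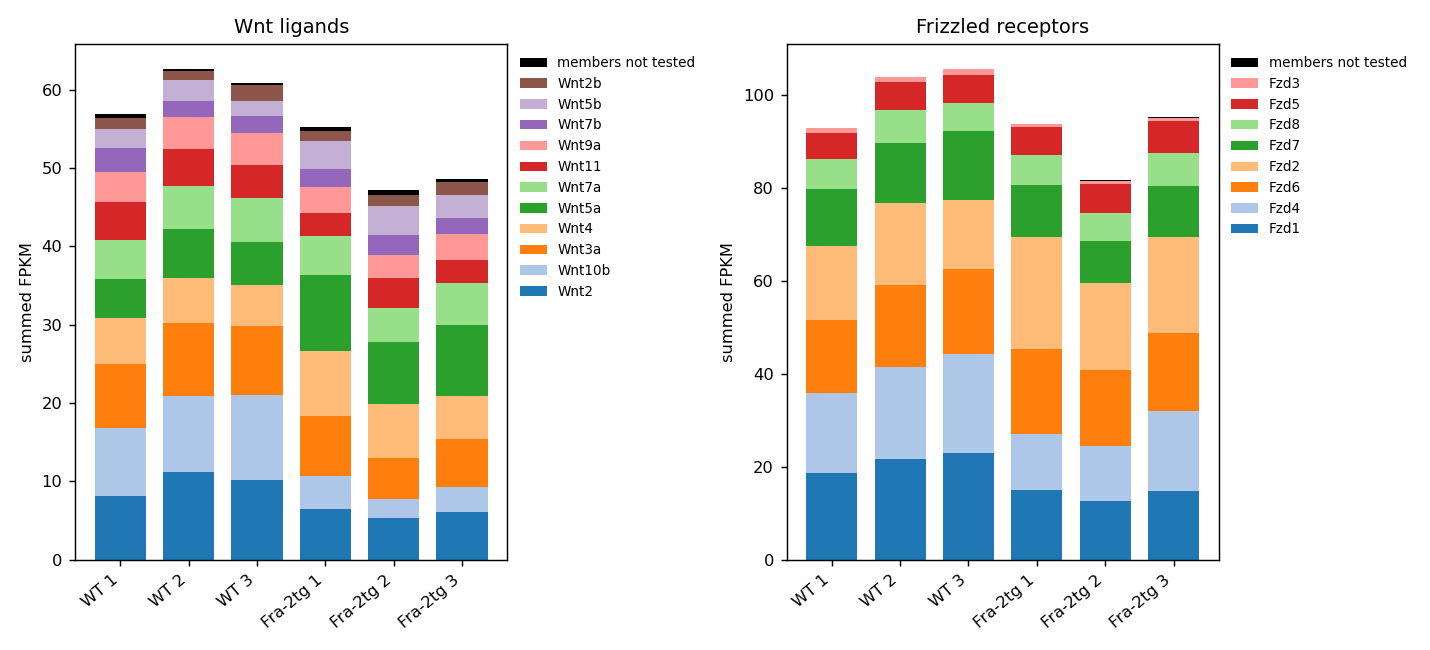
Stacked FPKM of the Wnt ligands (left) and Frizzled receptors (right) in each of the 6 libraries, with members that were not tested pooled in black. The Wnt10b band is narrower in Fra-2tg, 2.37 to 4.23 FPKM against 8.76 to 10.7 in wild type, and the Wnt5a band broader, 7.89 to 9.69 against 4.87 to 6.14 FPKM.

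Of the 12 receptors, 10 were tested, 1 was called higher and 3 lower. Lrp5, the co-receptor known for its part in bone mass and retinal vessels, had the smallest adjusted p of the members (chromosome 19, 3584828 to 3686564). It was 38.1, 36.9 and 40.15 FPKM in wild-type mice, against 25.3, 24.02 and 25.3 FPKM in Fra-2tg. The groups were tight and far apart, at 38.4 ± 1.63 and 24.9 ± 0.73 FPKM (± SD of 3 mice), 0.648 times wild type (log2 fold change -0.61 ± 0.06 SE, limma adjusted p = 0.00148). Its paralog Lrp6 was 11.4 to 13.4 FPKM in wild-type mice, against 11.03 to 12.9 FPKM in Fra-2tg, with overlapping groups (limma adjusted p = 0.69).

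Fzd1 and Fzd4 were lower and Fzd2 higher. Fzd1 (chromosome 5, 4753839 to 4758035) measured 18.6, 21.6 and 23.0 FPKM in wild-type mice, against 14.9, 12.5 and 14.9 FPKM in Fra-2tg. It stood at 0.668 times wild type with no overlap (log2 fold change -0.55 ± 0.10 SE, limma adjusted p = 0.00985). Fzd4, an endothelial receptor for Wnt and for the growth factor Norrin, was 17.2, 19.8 and 21.2 FPKM in wild-type mice, against 12.2, 11.9 and 17.0 FPKM in Fra-2tg. Its groups nearly touched, since Fra-2tg replicate 3 lay just under wild type replicate 1 (0.707 times wild type, limma adjusted p = 0.0497). Its call ended without any 1 library other than Fra-2tg replicate 3 (0.0542 to 0.152) and under median-ratio scaling (0.0534). Fzd2 was 15.9, 17.6 and 14.8 FPKM in wild-type mice, against 24.04, 18.7 and 20.8 FPKM in Fra-2tg. It stood 1.31-fold higher without overlap (limma adjusted p = 0.0427), and its call ended when wild type replicate 1 or 3, or Fra-2tg replicate 1 or 3, was left out (0.0884 to 0.132) and under the scaling without Sftpc and Scgb1a1 (0.165).

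Fzd1, Fzd2 and Fzd7 are closely related in sequence, and the sources used here do not say how shared fragments were assigned, so the split among them is uncertain. Fzd7 was 12.2 to 14.7 FPKM in wild-type mice, against 8.96 to 11.3 FPKM in Fra-2tg, and Fzd3, a receptor of planar polarity, 0.933 to 1.14 and 0.702 to 0.74 FPKM. Neither pair of groups overlapped, yet neither gene was called (limma adjusted p = 0.0563 and 0.0955). With no filter on low values Fzd3 was called lower (limma adjusted p = 0.0379). Fzd5, Fzd6 and Fzd8 had ratios of 1.05, 0.996 and 1.01 to wild type with overlapping groups (limma adjusted p = 0.607, 0.978 and 0.963). Fzd1 made up 20.9% ± 0.87 of the summed Frizzled FPKM in wild-type mice, against 15.6% ± 0.27 in Fra-2tg, and Fzd2 16.0% ± 1.76 and 23.5% ± 1.98 (± SD of 3 mice). The Frizzled sums themselves overlapped, at 92.9 to 106 FPKM in wild-type mice, against 81.6 to 95.1 FPKM in Fra-2tg.

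Of the proteins that assist these receptors, Tspan12 and Reck fell. Tspan12, the tetraspanin that assists Fzd4, was 21.5, 24.5 and 26.9 FPKM in wild-type mice, against 14.0, 10.5 and 13.0 FPKM in Fra-2tg (log2 fold change -0.91 ± 0.12 SE, limma adjusted p = 0.00342). Reck, which with Gpr124 presents Wnt7 ligands to Frizzled on endothelium, was 23.6, 23.3 and 27.9 FPKM in wild-type mice, against 10.9, 8.92 and 10.9 FPKM in Fra-2tg (log2 fold change -1.21 ± 0.10 SE, limma adjusted p = 0.0013). Every Fra-2tg value of both genes was below every wild-type value. Norrin itself (Ndp), named with Gpr124 after their values were seen, went the other way, from 0.233, 0.628 and 0.211 FPKM to 2.22, 1.12 and 1.17 FPKM (limma adjusted p = 0.0217). Ndp averaged 0.358 FPKM in wild type, under the filter, which it passed through its Fra-2tg values. The Ndp call ended without wild type replicate 1 or 3 (0.0595 and 0.0765), and its ratio of 4.20 was 6.75 without wild type replicate 2. Gpr124 was 18.5 to 21.4 FPKM in wild-type mice, against 20.2 to 24.8 FPKM in Fra-2tg, not called (limma adjusted p = 0.121). Of 8 endothelial markers, 4 fell and 1 rose, and their summed FPKM was 1805 to 1995 in wild-type mice, against 1536 to 1670 in Fra-2tg. Cdh5, Kdr, Tmem100 and Ednrb fell, to 0.741, 0.631, 0.752 and 0.164 times wild type, and Car4 rose to 1.23 times (limma adjusted p = 0.0111, 0.00539, 0.0125, 0.000279 and 0.0275). Pecam1, Tek and Cldn5 were not called, at 1.003, 0.845 and 0.830 times wild type (limma adjusted p = 0.955, 0.0707 and 0.13). The median log2 fold change of the list was -0.34, and the part of endothelium in the falls was not tested.

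**Figure D3:**
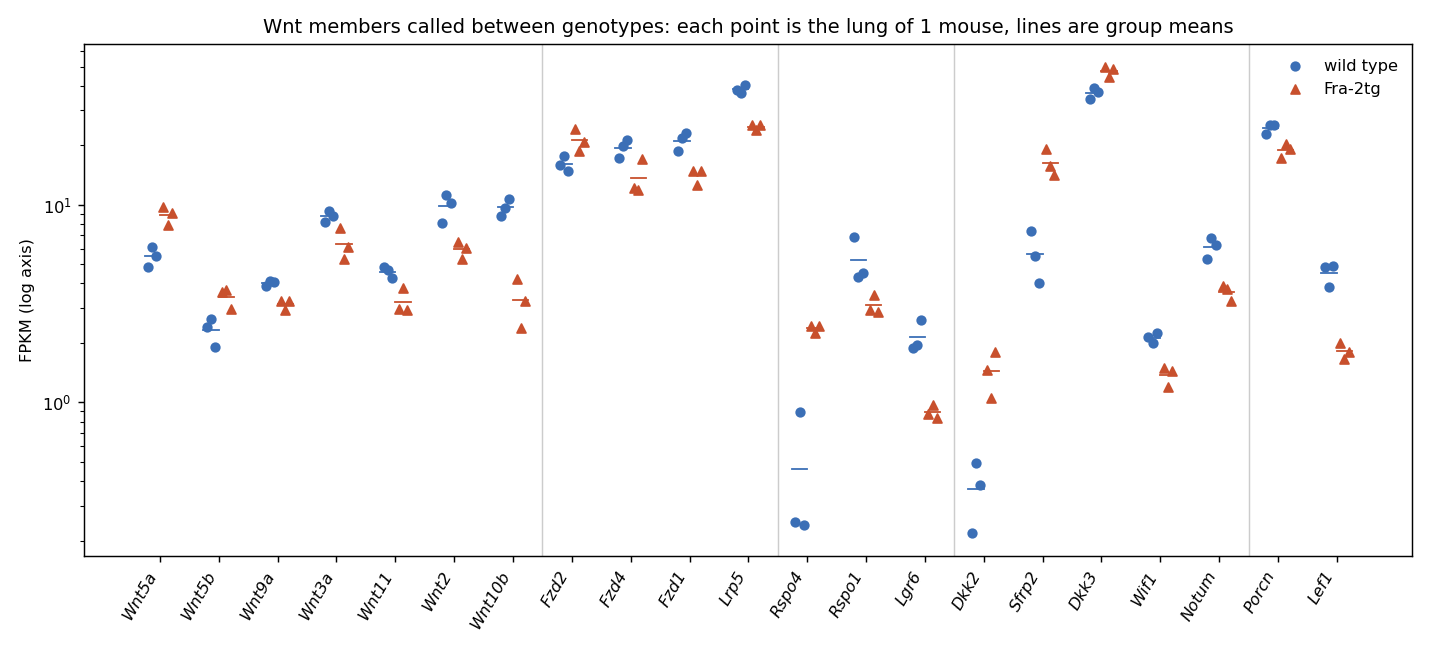
FPKM of the 21 called Wnt members on a log axis, 3 wild-type mice (circles) and 3 Fra-2tg mice (triangles) for each gene, with lines at the group means. In no gene do the groups overlap, and Rspo4 shows 1 wild-type mouse at 0.891 FPKM well above the other wild-type mice at 0.24 and 0.248.

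The R-spondins moved in opposite directions. Rspo4, known in people for its role in nail formation, rose (chromosome 2, 151842927 to 151874668). It was 0.248, 0.891 and 0.24 FPKM in wild-type mice, against 2.43, 2.26 and 2.44 FPKM in Fra-2tg. The Fra-2tg mice were alike, and wild type replicate 2 was the high wild-type mouse. The ratio of means was 5.16 (log2 fold change 1.24 ± 0.17 SE, limma adjusted p = 0.00397), and leaving out wild type replicate 2 made it 9.73. Because the wild-type level is low, with a mean under the filter, the log2 fold change was 2.34 with a pseudocount of 0.1 FPKM.

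Rspo1 fell, from 6.90, 4.33 and 4.50 FPKM in wild type to 2.93, 3.50 and 2.87 FPKM in Fra-2tg. It stood at 0.591 times wild type without overlap (limma adjusted p = 0.0394), wild type replicate 1 being the high one. Its call ended without wild type replicate 3 or any 1 of the Fra-2tg libraries (0.0532 to 0.113). Rspo3, an R-spondin of endothelium and mesenchyme, was below the filter at a mean under 0.5 FPKM and was not tested with the others (chromosome 10, 29452416 to 29535867). It was 0.699, 0.687 and 0.841 FPKM in wild-type mice, against 0.117, 0.182 and 0.149 FPKM in Fra-2tg, 0.201 times wild type. With no filter on low values the log2 difference was -0.60 (limma adjusted p = 0.00263).

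Of the R-spondin receptors, Lgr6 fell and Lgr4 was not called. Lgr6 (chromosome 1, 134983301 to 135105276) measured 1.88, 1.95 and 2.62 FPKM in wild-type mice, against 0.873, 0.966 and 0.834 FPKM in Fra-2tg. The lowest wild-type mouse was well above the highest Fra-2tg mouse, and the ratio was 0.414 (log2 fold change -0.73 ± 0.11 SE, limma adjusted p = 0.00523). Lgr4, the most widely expressed of the receptors, was 1.473 to 1.60 FPKM in wild-type mice, against 1.26 to 1.4698 FPKM in Fra-2tg. Its groups lay close together without overlap (limma adjusted p = 0.36). Lgr5, a stem cell marker of gut and hair follicle, stayed under the filter at 0.193 to 0.254 FPKM in wild-type mice, against 0.0545 to 0.129 FPKM in Fra-2tg. In all, 4 of the 7 R-spondins and Lgr receptors were tested, with 1 called higher and 2 lower.

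Secreted inhibitors gave 3 rises and 2 falls among 7 tested of 11. Sfrp2, a Wnt-binding protein made by fibroblasts, rose (chromosome 3, 83766321 to 83774316). It was 7.40, 5.49 and 4.002 FPKM in wild-type mice, against 19.1, 15.8 and 14.1 FPKM in Fra-2tg. The lowest Fra-2tg mouse lay above the highest wild-type mouse by a wide margin, with means of 5.63 ± 1.70 and 16.3 ± 2.55 FPKM (± SD of 3 mice). The rise was 2.90-fold (log2 fold change 1.41 ± 0.20 SE, limma adjusted p = 0.00398). Of 9 adventitial fibroblast markers, 4 rose, and 3 fell. The rises were Cd34, Mfap5, Dpt and Col14a1 and the falls Pi16, Dcn and Clec3b, all named after their values were seen, and Cd34 is also a gene of endothelium. The median log2 fold change of the list was -0.16, while its sum went the other way. Their summed FPKM was 529 to 638 in wild-type mice, against 909 to 984 in Fra-2tg. Without Cd34 alone it was 414 to 459 in wild-type mice, against 539 to 596 in Fra-2tg. Without Cd34, Mfap5 and Dpt, left out after their rises were seen, it was 264 to 287, against 188 to 199.6. None was at 0, and their part in the Sfrp2 result was not tested.

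Dkk2, which blocks Lrp5 and Lrp6, was 0.219, 0.494 and 0.382 FPKM in wild-type mice, against 1.46, 1.05 and 1.80 FPKM in Fra-2tg (chromosome 3, 132085292 to 132180304). It rose 3.93-fold from a low level without overlap (log2 fold change 0.83 ± 0.14 SE, limma adjusted p = 0.00799). It passed the filter through its Fra-2tg values. Dkk3, a divergent relative placed in the inhibitor group by its symbol, was the most abundant member of that group. It was 34.2, 39.0 and 37.2 FPKM in wild-type mice, against 49.6, 44.5 and 48.4 FPKM in Fra-2tg. Its rise was small but clear of the spread, 1.29-fold (log2 fold change 0.36 ± 0.07 SE, limma adjusted p = 0.0127), and the call ended under the scaling without Sftpc and Scgb1a1 (0.121). The sum over the whole inhibitor group was mostly Dkk3 and Sfrp2. It was 54.1 to 57.6 FPKM in wild-type mice, against 69.7 to 79.0 FPKM in Fra-2tg.

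Notum and Wif1 fell. Notum, the enzyme that inactivates Wnt proteins by removing their lipid, was 5.29, 6.78 and 6.29 FPKM in wild-type mice, against 3.87, 3.76 and 3.25 FPKM in Fra-2tg (chromosome 11, 120653788 to 120661175). It stood at 0.593 times wild type with no overlap (log2 fold change -0.62 ± 0.10 SE, limma adjusted p = 0.00706). Wif1, which binds Wnt proteins directly, was 2.13, 2.00 and 2.26 FPKM in wild-type mice, against 1.4999, 1.20 and 1.44 FPKM in Fra-2tg. This was 0.648 times wild type, without overlap (limma adjusted p = 0.019), and the call ended without wild type replicate 3 (0.0687). Sfrp1 was 2.17 to 3.61 FPKM in wild-type mice, against 2.60 to 2.86 FPKM in Fra-2tg, and Sfrp4 0.791 to 1.88 and 0.43 to 0.797 FPKM. Both pairs of groups overlapped and neither gene was called (limma adjusted p = 0.952 and 0.0972).

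Of the transcription factors, Lef1 fell and Tcf7 was not called. Lef1 (chromosome 3, 131110471 to 131224356) measured 4.85, 3.82 and 4.92 FPKM in wild-type mice, against 1.99, 1.65 and 1.80 FPKM in Fra-2tg. The lowest wild-type value was far above the highest Fra-2tg value, and the ratio was 0.400 (log2 fold change -0.97 ± 0.11 SE, limma adjusted p = 0.00211). Tcf7 was 25.8, 21.9 and 21.2 FPKM in wild-type mice, against 22.7, 18.0 and 21.0 FPKM in Fra-2tg, with overlap (limma adjusted p = 0.321). Both factors are also genes of lymphocytes, Tcf7 and Lef1 of T cells and Lef1 of early B cells. Of 10 T cell markers, 1 rose (Cd3g) and 1 fell (Cd8a), with sums of 60.03 to 83.1 FPKM in wild-type mice, against 79.2 to 91.4 FPKM in Fra-2tg. Of 6 B cell markers, 6 fell, with sums of 123 to 263 FPKM in wild-type mice, against 31.3 to 47.5 FPKM in Fra-2tg, and the part of either lymphocyte in the Lef1 fall was not tested.

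Axin2, the target gene most often read as a measure of canonical signalling, did not pass the test. It was 10.3, 10.9 and 11.2 FPKM in wild-type mice, against 10.04, 5.91 and 6.93 FPKM in Fra-2tg. The groups did not overlap, although Fra-2tg replicate 1 was close to wild type. The ratio was 0.706 (log2 fold change -0.48 ± 0.17 SE, limma adjusted p = 0.0747). It was called lower without Fra-2tg replicate 1 (log2 fold change -0.67, limma adjusted p = 0.0112). Porcn, the enzyme that attaches the lipid to Wnt proteins, was 22.9, 25.3 and 25.4 FPKM in wild-type mice, against 17.2, 20.3 and 19.2 FPKM in Fra-2tg. It fell to 0.770 times wild type without overlap (limma adjusted p = 0.0175), and its call ended when wild type replicate 2 or 3, or Fra-2tg replicate 1, was left out (0.0501 to 0.0668).

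The 17 members under the filter had at most 0.841 FPKM in any library. Dkk4, a Dickkopf inhibitor, was listed at 0 in all 6, and Wnt1, whose gene is 11706 bases from Wnt10b, at 0 in all Fra-2tg mice and at 0.0718, 0.0245 and 0 FPKM in wild type. Frzb, an Sfrp-like inhibitor of cartilage, was 0.0875 to 0.187 FPKM in wild-type mice, against 0.0146 to 0.0637 FPKM in Fra-2tg. Wnt3 was 0.0175 to 0.0322 FPKM in wild-type mice, against 0.0744 to 0.125 FPKM in Fra-2tg, and its neighbour Wnt9b, 24328 bases away, 0.0107 to 0.089 and 0.0308 to 0.0443 FPKM. The remaining low members, Wnt6, Wnt8a, Wnt8b, Wnt10a, Wnt16, Fzd9, Fzd10, Rspo2, Sfrp5 and Dkk1, lay at 0 to 0.389 FPKM. At such levels a value rests on few fragments, and these differences were not tested in the main comparison.

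**Figure D4:**
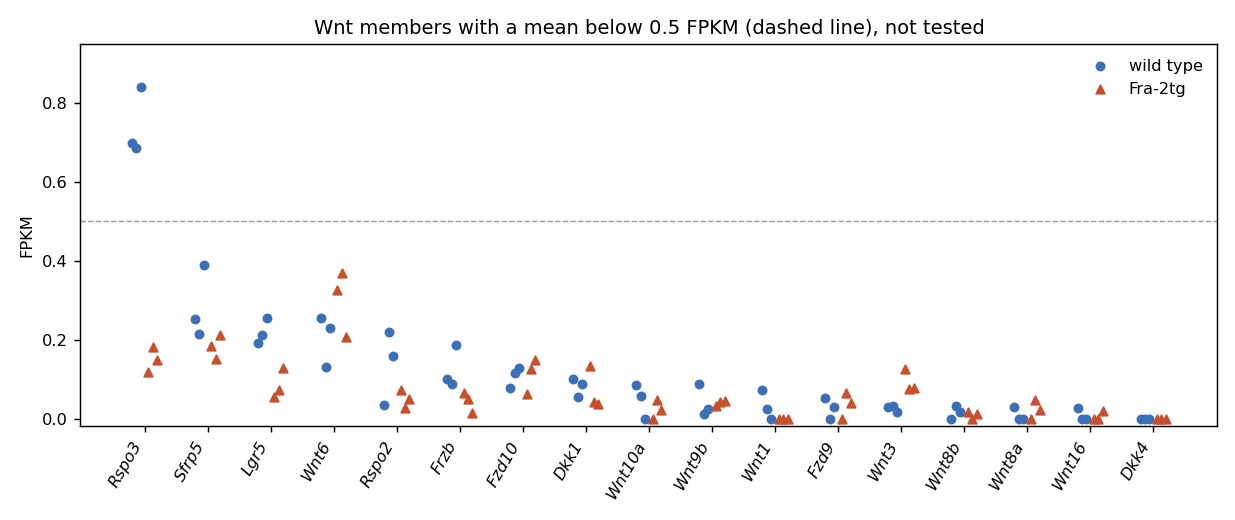
FPKM of the 17 Wnt members whose mean over 6 libraries was below 0.5 FPKM (dashed line), 3 wild-type mice (circles) and 3 Fra-2tg mice (triangles) for each gene. Rspo3 is the member above the line in wild type, at 0.687 to 0.841 FPKM, against 0.117 to 0.182 FPKM in Fra-2tg.

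Of 95 other genes of the pathway that were tested, 32 were called, 16 higher and 16 lower. That was 33.7%, where 26.7% of all tested genes were called in either direction. By direction it was 16.8% higher and 16.8% lower, where all tested genes gave 13.6% and 13.0%. In the list of the beta-catenin destruction complex and its TCF partners, 1 of 29 tested genes rose and 5 fell, and beta-catenin itself (Ctnnb1), the most abundant of them, was 296 to 333 FPKM in wild-type mice, against 354 to 396 FPKM in Fra-2tg without a call (limma adjusted p = 0.051). Ctnnbip1, which keeps beta-catenin from TCF factors, rose from 7.75, 8.70 and 6.81 FPKM to 15.1, 13.5 and 12.7 FPKM (limma adjusted p = 0.0035). The corepressors Tle1 and Tle4 and the kinase Csnk1e fell by 0.55, 0.46 and 0.38 on the log2 scale (limma adjusted p = 0.00273, 0.00671 and 0.00713). The median log2 fold change over that list was -0.05.

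Target and feedback genes split, with 6 of 19 tested rising and 4 falling. Apcdd1, a membrane inhibitor of Wnt, rose from 5.61, 7.23 and 5.56 FPKM to 11.7, 11.5 and 13.9 FPKM (log2 fold change 0.91 ± 0.12 SE, limma adjusted p = 0.00303). Myc, a growth regulator with many inputs besides Wnt, and the matricellular gene Wisp2 rose by 1.12 and 0.75 on the log2 scale (limma adjusted p = 0.00523 and 0.00764). Nkd2, a feedback inhibitor of Dishevelled, fell from 4.67, 3.85 and 4.19 FPKM to 2.58, 2.23 and 2.45 FPKM (limma adjusted p = 0.00426). Its relative Nkd1, named after its values were seen, was at 0.838 times wild type (limma adjusted p = 0.0165, and 0.0524 to 0.0621 without wild type replicate 2 or 3 or Fra-2tg replicate 1). The ubiquitin ligases Znrf3 and Rnf43, feedback genes that R-spondins oppose, had ratios of 0.753 and 1.01 and were not called (limma adjusted p = 0.0697 and 0.951), and are also named after their values were seen. The median of the list was 0.07.

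Among other receptors, carriers and extracellular regulators, 5 of 22 tested genes rose and 4 fell, with a median of -0.09. Sost, of the same list and named after its values were seen, averaged under the filter and was not tested. It was 0.448, 0.6 and 1.06 FPKM in wild-type mice, against 0, 0.0331 and 0.0301 FPKM in Fra-2tg. Besides Reck and Tspan12, Lrp4, a co-receptor that binds Wnt inhibitors, fell from 22.8, 23.2 and 28.1 FPKM to 10.8, 10.5 and 12.1 FPKM (limma adjusted p = 0.0014). Igfbp4, a secreted protein that binds IGF and also Lrp6, fell by 0.91 on the log2 scale (limma adjusted p = 0.00498). In the planar polarity and calcium branch, 4 of 25 tested genes rose and 3 fell, with a median of -0.03. Over all tested genes, 13.6% were called higher and 13.0% lower, and the counts of this branch lie near those shares. Prickle1, a polarity protein, fell from 44.6, 39.6 and 54.3 FPKM to 23.9985, 14.8 and 17.2 FPKM (limma adjusted p = 0.00459), while Prickle3 was 1.23-fold higher (0.0151). The calcium branch genes Camk2d and Nfatc2 rose by 0.46 and 0.65 on the log2 scale (limma adjusted p = 0.00495 and 0.00523). The Prickle3 call ended without wild type replicate 3 or Fra-2tg replicate 1 (0.0592 and 0.0511) and under the scaling without Sftpc and Scgb1a1 (0.17).

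Markers of some other cell types moved with the genotype, while other lists gave mixed calls or overlapping sums. Of 7 alveolar macrophage markers 5 rose and 0 fell, with sums of 287 to 732 FPKM in wild-type mice, against 1634 to 3905 FPKM in Fra-2tg. Most of that sum was Chi3l3, and without it the sums were 97.6 to 112 FPKM, against 163 to 226 FPKM. Marco and Fabp4 were the markers not called (limma adjusted p = 0.52 and 0.221). Beside the marker counts given here and above, 13.6% of all tested genes were called higher and 13.0% lower. Of 10 smooth muscle and myofibroblast markers 2 rose and 5 fell, of 7 alveolar type 1 markers 1 and 4, of 7 airway markers 0 and 3, and of 6 mesothelial markers 1 and 1. Of 7 alveolar type 2 markers, Sftpa1, Sftpb, Lamp3 and Slc34a2 rose and Lyz2, also a macrophage gene, fell. The other one called was Sftpc, and whether its listing at 0 in every Fra-2tg library is a level or a failed estimate is not known. Without Sftpc the alveolar type 2 sums overlapped, at 8041 to 9823 FPKM in wild-type mice, against 8307 to 9264 FPKM in Fra-2tg. Of 6 heart muscle markers 0 rose and 5 fell, and of 5 fat markers tested 0 rose and 5 fell. Of 7 cartilage markers, Sox9 was the one tested and rose, while the other 6 stayed below 0.5 FPKM in every library. Sox9 averaged 0.345 FPKM in wild type, under the filter, which it passed through its Fra-2tg values.

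Several members share exonic sequence with genes on the opposite strand in GENCODE M21, among them Wnt5a, Wnt7b, Wnt11, Sfrp2, Lef1, Notum, Rspo3 and Axin2. The libraries mark the strand, but the sources used here do not say whether counting used it, so reads of these genes and of their antisense partners may not have been told apart. The other called members lie on GRCm38 at chromosome 11, 59248033 to 59290752 (Wnt3a), 59306928 to 59333552 (Wnt9a) and 102604396 to 102608058 (Fzd2). Those on chromosome 7 are Wnt11 at 98835112 to 98855195, Fzd4 at 89404355 to 89413134 and Dkk3 at 112116017 to 112159057. Rspo1 lies on chromosome 4 at 124986430 to 125009099, Wif1 on chromosome 10 at 121033960 to 121100650 and Porcn on chromosome X at 8193848 to 8206525.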

How the data were processed

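Poly(A) RNA of whole lung was sequenced for 6 mice, 3 wild type and 3 Fra-2tg, in libraries that keep strand, per the labels' protocols. Per the submitters' processing notes, TopHat2 2.0.10, Bowtie 1.0.0, SAMtools 0.1.19, Cufflinks 2.2.1 and FastQC were used with GRCm38 (mm10); their settings are not stated there. The authors deposited FPKM per gene, 1 column for each mouse. FPKM is no count, and no count model was applied.

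limma 3.58.1 (R 4.3.3, two-sided, variance trend, no covariate) was run on log2(FPKM + 1) on genes averaging 0.5 FPKM or more, with Benjamini-Hochberg adjustment over all genes tested. Fold changes on this scale understate low genes, so ratios of group means are given beside them. The procedure was tested on simulated data in which genes varied independently and few of them changed. These data differ from that setting, so the simulation does not show how often calls here are wrong. Members were matched by symbol, and members, lists and tests were chosen with earlier results of these data known. Called members, the 2 most abundant of each role and up to 4 called genes with the smallest adjusted p of each pathway list are named. All 205 genes of the lists matched a row, 3 of them through another symbol. The groups are described as littermates, but nothing pairs the mice by number. Each p-value sets the genotype difference against the spread within the groups, moderated toward a trend over all genes tested. It covers these 6 mice only.

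The fragments behind a value are not given. Relative depth, estimated from genes under 0.15 FPKM with wild type replicate 1 at 1, was 0.832 to 1 for wild-type mice, against 0.927 to 1.38 for Fra-2tg; only 8.33% to 12.8% of those genes lay at the step used, so whole reads were not recovered and the estimates are rough. Median-ratio factors of the deposited values were 0.994 to 1.01. Alternatives were other pseudocounts, filters and scalings, robust moderation, the replicate number as a block, and each library left out. Positions are from GENCODE M21 on GRCm38.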

Additional observations from a re-analysis of the deposited data

How the results depend on the processing

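Directions of the 21 called members stayed the same under all 15 alternatives, except that a filter at 1 FPKM left Dkk2 untested, and 10 kept their call in each alternative that tested them. Pseudocounts of 0.1 and 0.01 FPKM and robust moderation ended none of these calls, no filter ended 5 (Fzd2, Fzd4, Rspo1, Wnt3a and Wnt5b) and median-ratio scaling 1 (Fzd4). The fit with no filter also called lower some members not called in the main comparison, among them Fzd3 and Rspo3. Scaling to equal library sums ended 8 (Fzd2, Fzd4, Porcn, Rspo1, Wif1, Wnt5b, Wnt9a and Wnt11), left 8 members called lower against 14, and gave 2301 genes called against 3963 and 21 pathway genes against 32. Equal sums without Sftpc and Scgb1a1, chosen after seeing the data, left 4 members called higher against 7 and added Axin2 and Fzd7 to those called lower. The same-numbered mice of the 2 groups did not deviate together in every pair (correlations -0.05, 0.01 and 0.16), so the numbers are not taken as pairs; with the replicate block 3541 genes were called and 17 of the 21 members kept their call. With each library left out, 2229 to 3189 genes, 6 to 11 members lower and 17 to 27 pathway genes were called, the lowest of each without wild type replicate 3. Fosl2 was called in none. The causes of these shifts were not tested. The unknown number of fragments limits what can be said of members under 0.5 FPKM, and 3 mice a group limit all results.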
